A study of Mus musculus with 21 samples.

Results

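The messenger RNA levels of 46 genes of autophagy and mitochondrial clearance were followed while MEDEP cells matured into red cells. The members were chosen by gene symbol, from knowledge of the pathway and with earlier results of these data known. They came out of 22483 genes in the deposited tables, and each of the 46 had 1 row there. MEDEP cells are erythroid progenitors grown from mouse embryonic stem cells, here the BRC5 line. They proliferated with stem cell factor (SCF) and dexamethasone (dex), and differentiation was started by taking both away and giving 4 U/ml Epo (erythropoietin). Libraries of polyadenylated RNA were made from cells before the switch (0 h), and after 12, 24, 36, 48 and 72 h of it. A further group had 12 h of Epo together with succinyl acetone (SA), which blocks heme synthesis. All 7 groups came from the same cell line in culture, so no macrophages or other marrow cells surrounded the maturing cells, and each group held 3 replicates that the design text calls biological.

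Autophagy encloses part of the cytoplasm in a double membrane, the autophagosome, which then fuses with a lysosome. A kinase complex around ULK1 starts the process, a lipid kinase complex around VPS34 and Beclin 1 marks the site, and WIPI, ATG2 and ATG9 proteins feed the growing membrane. A pair of ubiquitin-like conjugation systems then attaches proteins of the ATG8 family (LC3 and GABARAP) to the membrane, where cargo receptors bind them. Maturing red cells remove their mitochondria and other organelles in this way, and the mitochondrial receptor NIX, the product of Bnip3l, is the best known route for mitochondria in reticulocytes.

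Levels are given in TPM (transcripts-per-million), which are per length and can be compared between genes. Changes are log2 differences on 2 scales. The TMM scale (edgeR) measures a gene against the middle of all tested genes, whose median change lay between -0.13 and 0.02 in the 7 comparisons. The TPM scale (limma on log2(TPM + 1)) measures a share of the library. On it the median gene changed by -1.84 between 24 and 36 h and by -3.26 between 0 and 72 h. Globin messages went from at most 0.0752% of counts at 0 h to between 31.7 and 37.0% at 72 h. A share of counts is not a share of TPM. In TPM the globin gene Hbb-bs alone stood at 282, 792 and 364 at 0 h and at 451606, 475768 and 288886 at 72 h. The part of globin in the median change was not tested. Without another scale named, "rose" and "fell" below mean an adjusted p of at most 0.05 on the TMM scale, and an error after ± is the SE of a change or the SD of a level (n = 3). In bulk RNA, fewer cells of a type and less RNA per cell cannot be told apart.

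The libraries held 16.7 to 39.3 M estimated counts. Erythroid markers (11 genes) summed to between 2030 and 2790 TPM at 0 h and between 802000 and 894000 TPM at 72 h. Markers of macrophages stayed at or under 2.32 TPM summed, with Marco at 0 counts in 6 of the 7 groups, lymphocyte markers at or under 0.408 TPM and neutrophil markers at or under 2.5 TPM. Mast cell markers summed to between 50.8 and 73.3 TPM at 0 h and to between 4.33 and 8.55 TPM at 72 h. They did not move together. Between 0 and 72 h 2 of the 6 tested rose and 3 fell (43.3% and 46.5% of all genes). Mcpt4 went from at most 0.132 TPM at 0 h to 6.745, 3.75 and 7.482 TPM at 72 h. Megakaryocyte markers summed to between 107 and 184 TPM at 48 h. The part of mast cell and megakaryocyte markers in the results was not tested. Stromal markers stood at 5.15 TPM in 36 h replicate 1 and at most at 1.28 TPM elsewhere. Exons of Atg14, Atg16l2, Atg2b, Atg4d, Atg9a, Bcl2l13, Becn1, Gabarapl1, Lamp1, Map1lc3b, Optn, Rb1cc1, Sqstm1 and Uvrag overlap those of a gene on the opposite strand, and the sources used here do not say whether counting used the strand. Atg9a also overlaps Gm29253 on its own strand by 1072 bases, and Atg4a and Bnip3l have annotated pseudogenes, so their counts are uncertain to that extent.

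Of the 46 members 44 were tested. Atg4c, a protease that processes ATG8 proteins, had at most 6 counts in any library, and Mitf, a transcription factor of the MiT family, at most 10. All 44 tested members varied over the 0 to 72 h course, as did 97.6% of all 12360 genes tested. Mean CPM (counts-per-million, TMM-scaled) was highest at 72 h for 20 of the 44, at 48 h for 12, at 36 h for 3, at 24 h for 2, at 12 h for 1 and at 0 h for 6. By mean TPM, only Atg14, Map1lc3b, Gabarap and Sqstm1 of the tested members were highest at 72 h. Many were highest at 0 h in TPM, among them Ulk2, Pik3c3, Pik3r4, Atg3, Atg5, Atg7, Bcl2l13 and Tfe3. Such peaks were not counted over all genes. The members' summed TPM was 2018 to 2089 at 0 h and 2676 to 2728 at 12 h, with no overlap, and 2189 to 3547 at 72 h, where the 3 libraries spread on either side of the 12 h values.

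In the first 12 h of Epo 21 of 44 members rose and 8 fell, against 25.3% and 27.6% of all genes tested, with a median of 0.20. In TPM 20 were higher and 6 lower (20.9% and 31.1% of all genes). Between 12 and 24 h 15 rose and 6 fell (19.1% and 22.0% of all genes), and in TPM 5 were higher and 9 lower (6.32% and 45.0%). The largest step came between 24 and 36 h, when 30 rose and 3 fell with a median of 1.28, against 34.1% and 39.0% of all genes. In TPM that step took 9 members up and 26 down, with a median of -0.62, against 4.30% and 89.1% of all genes.

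From 36 to 48 h 26 members rose and 3 fell (20.0% and 29.7% of all genes), and in TPM 2 were higher and 15 lower (2.58% and 62.5%). From 48 to 72 h 16 rose and 15 fell (24.7% and 34.5%), and in TPM 7 were higher and 28 lower (4.59% and 59.3%). Over the whole course, 72 h against 0 h, 35 members rose, 8 fell and Atg101 was not called, with a median of 2.25, against 43.3% and 46.5% of all genes. The same comparison in TPM gave 10 members higher and 29 lower, with a median of -1.21, against 5.26% and 90.9% of all genes. The 10 members with a larger share of the library at 72 h than at 0 h were Ulk1, Atg14, Becn1, Atg9a, Map1lc3b, Gabarap, Sqstm1, Nbr1, Calcoco1 and Pink1, and the 5 not called there were Atg4a, Gabarapl1, Gabarapl2, Bnip3l and Lamp1. Neighbouring comparisons share a group of libraries, so their changes are given side by side and not correlated.

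**Figure D1:**
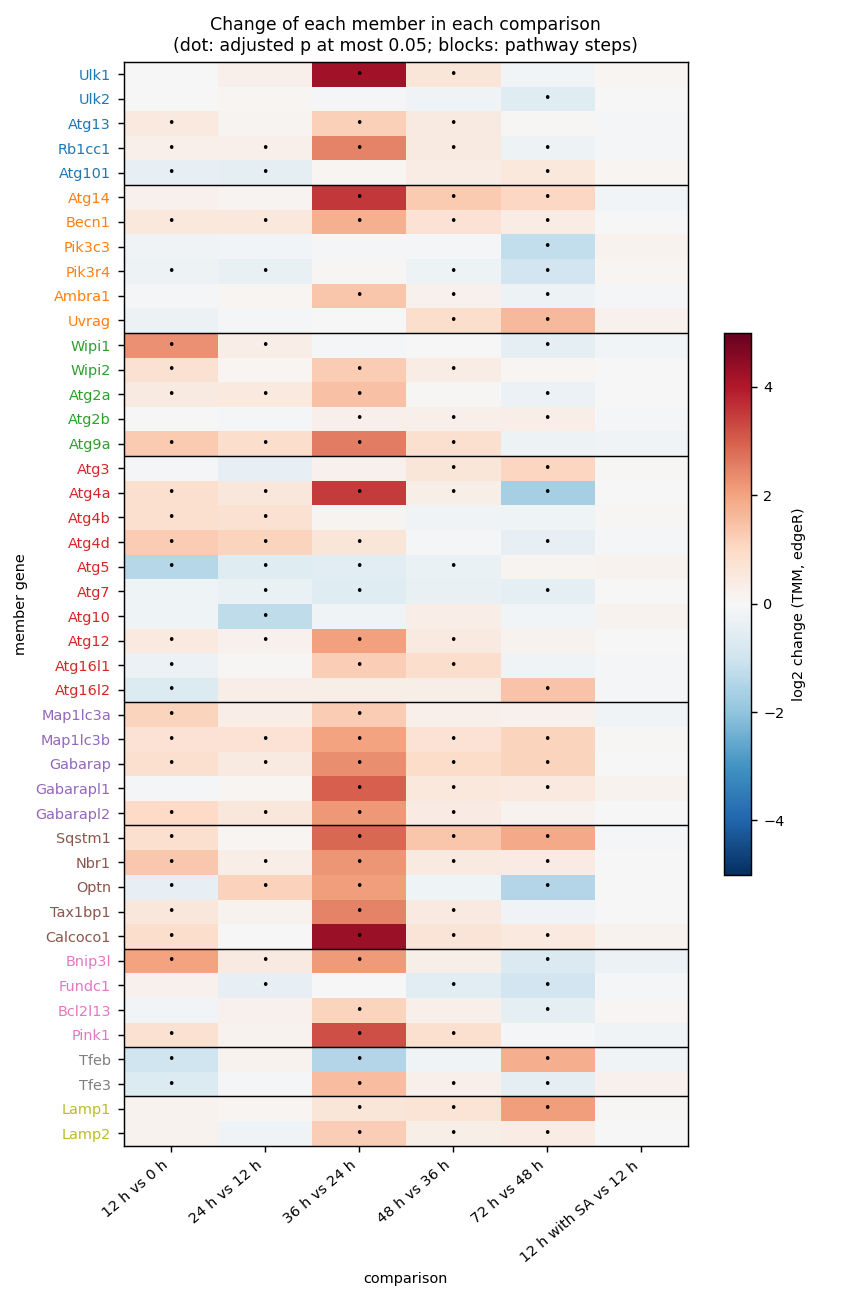
Log2 change (TMM scale, colour) of each of the 44 tested members, in rows grouped by pathway step, in the 5 steps of the course and with SA; a dot marks an adjusted p of at most 0.05. The 24 to 36 h column holds 30 rises and 3 falls (9 and 26 in TPM), and the SA column holds no dot.

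The initiation complex split. Ulk1, the kinase that starts autophagosome formation (chr5:110784488-110810097, minus strand, GRCm38), stood at 14.7, 14.3 and 16.1 TPM at 0 h, at 14.1, 14.3 and 14.1 TPM at 12 h and at 14.5, 12.7 and 14.4 TPM at 24 h. At 36 h it was at 61.0, 72.6 and 52.1 TPM, far above every earlier library, and at 72 h at 31.8, 27.6 and 41.5 TPM. Its log2 change between 24 and 36 h was 4.19 ± 0.17 (adjusted p = 2.70e-14; TPM 2.07), after steps of -0.01 and 0.26 that were not called. It then rose by 0.62 ± 0.15 to 48 h (adjusted p = 0.00204; TPM -0.02, not called) and did not pass the test to 72 h (-0.14 ± 0.15, adjusted p = 0.443; TPM -0.85).

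Ulk2, the related kinase, was close to Ulk1 at 0 h, at 13.4, 13.1 and 14.3 TPM, and at 72 h stood at 0.623, 0.383 and 0.600 TPM. The 2 kinases thus overlapped at 0 h and were far apart at 72 h. Over the course Ulk2 fell by 0.77 on the TMM scale (SE 0.08, adjusted p = 7.88e-09) and by 3.25 in TPM. Rb1cc1, the scaffold of the complex (FIP200), also rose between 24 and 36 h, by 2.47 ± 0.10 (adjusted p = 3.61e-14; TPM 0.47), with a mean that went from 39.6 to 55.1 TPM. Unlike Ulk1, which was higher at 72 h than at 0 h in TPM (1.09), it was lower there in TPM (-0.47) while it rose by 3.16 ± 0.11 on the TMM scale (adjusted p = 1.05e-16). Atg13, the adaptor, rose by 2.30 ± 0.13 over the course (adjusted p = 2.37e-13) while its share fell from 6.89 ± 0.204 to 2.41 ± 0.500 TPM. Atg101, its partner, fell in each of the first 2 steps, by 0.40 and 0.44 (adjusted p = 0.0230 and 0.0235; TPM -0.42 and -0.67), and rose by 0.53 ± 0.16 in the last (adjusted p = 0.00799; TPM -0.09, not called). Its mean CPM was highest at 72 h, while its share went from 17.5 ± 0.995 TPM at 0 h to 1.45 ± 0.586 TPM.

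**Figure D2:**
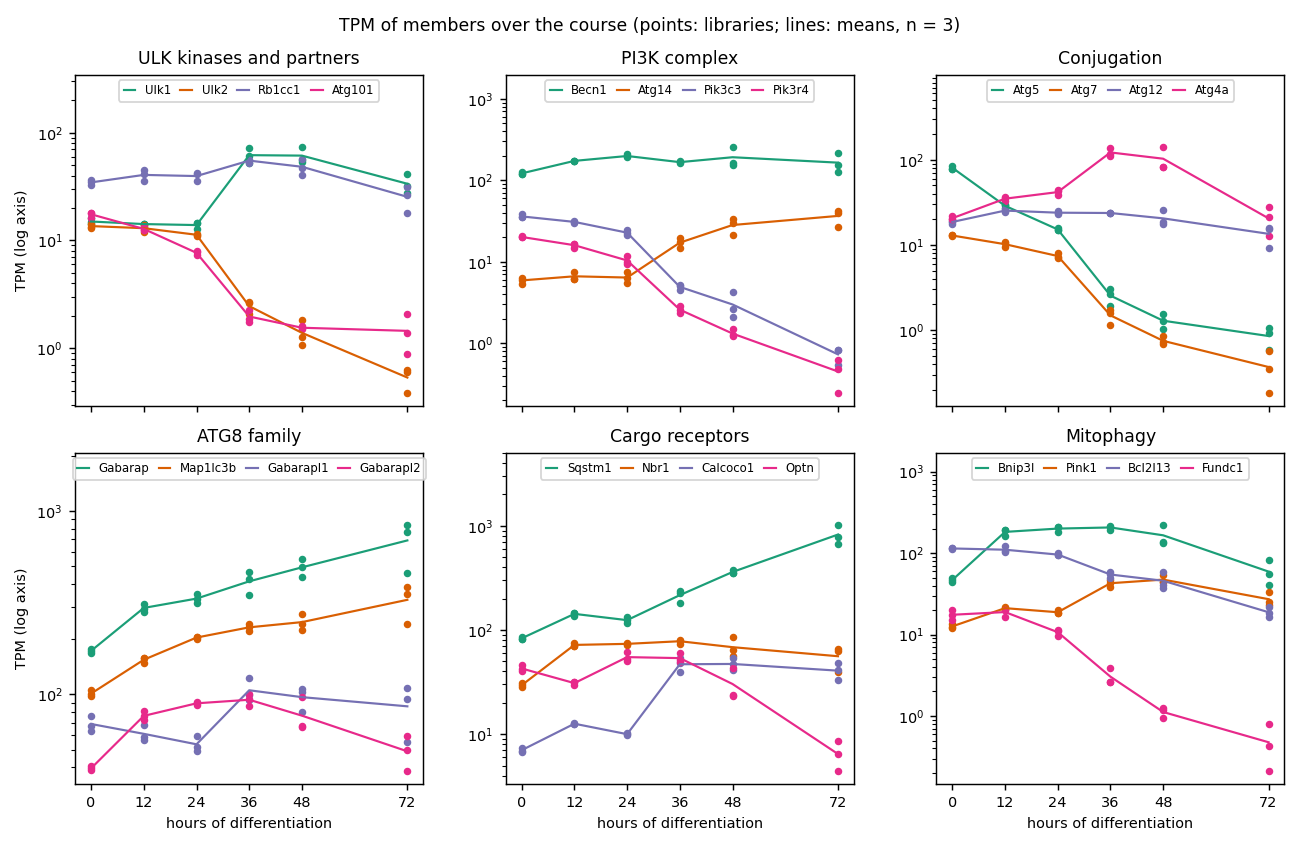
TPM of selected members from 0 to 72 h on a log axis, in 6 panels by role; points are libraries and lines are means of 3. Between 24 and 36 h Ulk1 and Ulk2 draw far apart, Atg14 and Pik3c3 cross, and Atg4a and Atg5, already apart at 24 h, part further. Sqstm1, Gabarap and Map1lc3b have their highest means at 72 h.

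The subunits of the lipid kinase complex also went separate ways, and on both scales. Atg14, which directs the complex to autophagosome formation, was at 6.01, 5.42 and 6.35 TPM at 0 h, at 17.5, 19.4 and 14.7 TPM at 36 h and at 42.4, 27.1 and 40.2 TPM at 72 h, with no overlap between these times. It rose by 3.54 ± 0.14 between 24 and 36 h (adjusted p = 2.04e-14; TPM 1.29), by 1.31 ± 0.13 to 48 h (adjusted p = 1.31e-07; TPM 0.67) and by 1.04 ± 0.13 to 72 h (adjusted p = 5.96e-07; TPM 0.35, not called). Becn1, which encodes Beclin 1, was at 126.9, 119.1 and 119.1 TPM at 0 h and at 152.1, 127.4 and 214.8 TPM at 72 h, so replicate 2 at 72 h lay just above the highest library at 0 h. It rose in every step, by 0.54 ± 0.11, 0.54 ± 0.11, 1.77 ± 0.11, 0.71 ± 0.11 and 0.39 ± 0.11 (largest adjusted p = 0.00374), and in TPM only the first of these steps was called (0.51).

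Pik3c3, which encodes the catalytic subunit VPS34, went the other way. It stood at 35.1, 35.0 and 38.2 TPM at 0 h, at 5.02, 4.55 and 5.23 TPM at 36 h and at 0.818, 0.540 and 0.841 TPM at 72 h. Its fall on the TMM scale came late, by 1.25 between 48 and 72 h (SE 0.09, adjusted p = 5.64e-10; TPM -1.18), and the 4 earlier steps lay between -0.17 and -0.09 and were not called, whereas in TPM it fell in each step from 12 h on. Pik3r4, the regulatory subunit VPS15, fell by 1.79 over the course (SE 0.11, adjusted p = 9.59e-13; TPM -3.87), from 20.2 ± 0.465 to 0.452 ± 0.191 TPM. At 72 h the mean level of Becn1 was 164.8 TPM and that of Pik3c3 0.733 TPM, against 121.7 and 36.1 TPM at 0 h.

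Of the other nucleation genes, Uvrag, an alternative partner of Beclin 1, was lowest at 36 h in TPM (2.57 ± 0.436) and rose by 1.62 ± 0.21 between 48 and 72 h (adjusted p = 1.21e-06; TPM 0.82). Its 72 h libraries were uneven, at 9.71, 3.25 and 5.22 TPM. Ambra1, a regulator of Beclin 1, rose by 1.38 ± 0.09 between 24 and 36 h (adjusted p = 2.07e-11), where it was lower in TPM (-0.59).

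The promoter of Atg14 is shown because it is the nucleation member with the largest rise and one of the few members whose RefSeq window (250 bases before to 50 after a start, GRCm38.p6) holds CACGTG, the E-box core bound by the MiT factors described below. The table held windows for 39 of the 46 members. On either strand the core was found in 5 of the 39 genes (12.8%), against 8.09% of 27025 genes, and these were Atg14, Atg3, Atg5, Atg7 and Lamp1. In 1 of them, Atg3, T precedes the core and A follows it (2.56% of the member genes, 1.12% of all genes). In the 140 bases below (chr14:47568415-47568554, minus strand, 120 bases before to 20 after the start) capitals mark the core, whose first base is at -1. The start lies inside the Atg14 gene of GENCODE M21 (chr14:47540893-47570649). The Atg7 window (chr6:114670846-114671145, plus strand) likewise lies inside the Atg7 gene (chr6:114643097-114860614). Which starts these cells use was not tested.
Atg14: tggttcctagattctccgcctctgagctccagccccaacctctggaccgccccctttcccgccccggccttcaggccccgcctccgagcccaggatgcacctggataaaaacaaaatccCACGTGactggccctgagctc

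Of the membrane supply genes 5 of 5 rose over the course on the TMM scale, with a median of 2.19, where 43.3% of all genes rose. In TPM 1 was higher and 4 were lower (median -1.39), where 5.26% and 90.9% of all genes were. Wipi1, which reads the lipid that VPS34 makes, had the largest rise of any member in the first 12 h. It was at 15.9, 14.7 and 15.1 TPM at 0 h and at 71.6, 74.5 and 74.3 TPM at 12 h, and the 24 h libraries lay in the same range (72.1, 75.5 and 74.3 TPM). The change in the first 12 h was 2.30 ± 0.09 (adjusted p = 2.26e-14; TPM 2.20). Its share of the library then fell to 16.3 ± 0.297 TPM at 36 h and 4.42 ± 1.07 TPM at 72 h, below every library at 0 h, while its CPM held between 84.3 and 86.5 on average from 24 to 48 h.

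Atg9a, the membrane protein of the seed vesicles, climbed in each of the first 4 steps. It was at 8.72, 8.99 and 9.38 TPM at 0 h, at 32.0, 30.4 and 30.5 TPM at 24 h and at 43.9, 41.0 and 74.9 TPM at 48 h, where replicate 3 stood well above the other libraries. The steps were 1.30 ± 0.13, 0.86 ± 0.13, 2.55 ± 0.13 and 0.80 ± 0.12 (largest adjusted p = 2.31e-05), and in TPM the first 3 of them were also called, at 1.10, 0.57 and 0.53. Wipi2 rose by 0.77 ± 0.09 in the first 12 h (adjusted p = 2.55e-07; TPM 0.70). Of the lipid transfer proteins, Atg2a rose by 1.47 ± 0.11 between 24 and 36 h (adjusted p = 1.79e-10; TPM -0.55) and Atg2b by 0.25 ± 0.08 (adjusted p = 0.0109; TPM -1.76).

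On the TMM scale Atg5 and Atg7, both of conjugation, made the 2 largest falls of the members over the course, whereas in TPM Pik3c3 (-4.42) came next after Atg5. ATG5, joined to ATG12 and bound to ATG16L1, forms the enzyme that places LC3 on the membrane, and its gene (chr10:44268358-44364291, plus strand) stood at 78.4, 78.6 and 84.5 TPM at 0 h. At 12 h Atg5 was at 27.5, 29.5 and 29.5 TPM, at 24 h at 15.6, 15.1 and 15.1 TPM, at 36 h at 3.04, 1.91 and 2.67 TPM and at 72 h at 1.06, 0.587 and 0.917 TPM. Each of these groups lay below the one named before it without overlap. The 48 h libraries, at 1.27, 1.03 and 1.55 TPM, overlapped those at 72 h. On the TMM scale Atg5 fell by 1.43 (SE 0.08, adjusted p = 8.65e-12), 0.60 (SE 0.08, adjusted p = 8.05e-06), 0.57 (SE 0.09, adjusted p = 1.13e-05) and 0.33 (SE 0.10, adjusted p = 0.0105) in the first 4 steps and was not called in the last (0.13 ± 0.10, adjusted p = 0.309; TPM -0.31). Its change over the course was -2.81 ± 0.09 (adjusted p = 7.25e-17), or -5.47 in TPM.

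Atg7, the activating enzyme of both conjugation systems, fell from 12.9 ± 0.221 to 0.369 ± 0.196 TPM, a change of -1.98 ± 0.14 (adjusted p = 2.72e-11; TPM -3.35). Atg10, which joins ATG12 to ATG5, fell by 1.27 between 12 and 24 h (SE 0.28, adjusted p = 9.96e-04; TPM -1.23), from 6.17 ± 0.150 to 2.06 ± 0.303 TPM, and was at 0.216 ± 0.110 TPM at 72 h. These 3 were the conjugation members that fell over the course, where 46.5% of all genes fell. On the TMM scale 7 of 10 rose, where 43.3% of all genes did. In TPM 9 of 10 were lower and none was higher, near the 90.9% and 5.26% of all genes. Atg12 itself rose by 3.39 ± 0.08 over the course (adjusted p = 5.58e-19; TPM -0.47) and kept between 18.6 and 25.3 TPM on average up to 48 h, with 13.5 ± 3.61 TPM at 72 h. Atg16l1 rose by 1.23 ± 0.12 between 24 and 36 h (adjusted p = 1.52e-08; TPM -0.56), and Atg16l2, a low gene at 0.269 to 3.18 TPM on average, rose by 1.42 ± 0.19 in the last step (adjusted p = 1.67e-06; TPM 0.51). Atg3, which carries LC3 to its lipid, had its lowest mean CPM at 24 h (26.8 ± 0.596) and its highest at 72 h (101.8 ± 22.4), whereas its mean TPM was 57.2 at 0 h and 11.2 at 72 h. Its change between 12 and 24 h, -0.41, was not called (adjusted p = 0.0510) but was called with the replicate number as a block (adjusted p = 0.0202).

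The ATG4 proteases, which trim ATG8 proteins and also release them from the membrane, had different peaks. Atg4a was at 38.3, 43.9 and 43.0 TPM at 24 h, at 116.9, 138.0 and 110.4 TPM at 36 h, at 82.5, 82.9 and 142.8 TPM at 48 h and at 21.2, 12.7 and 27.6 TPM at 72 h, where it overlapped the 0 h libraries (19.9 to 21.7 TPM). It rose by 3.50 ± 0.13 between 24 and 36 h (adjusted p = 1.07e-14; TPM 1.52) and fell by 1.65 between 48 and 72 h (SE 0.13, adjusted p = 7.73e-10; TPM -2.28). Atg4d gained share in each of the first 2 steps, from 11.1 ± 1.52 through 24.5 ± 2.03 to 45.9 ± 2.22 TPM, with changes of 1.28 ± 0.10 and 1.13 ± 0.10 (largest adjusted p = 1.60e-08; TPM 1.08 and 0.88). Atg4b went from 39.1 ± 3.40 to 84.6 ± 7.73 TPM over the same steps and was at 7.00 ± 0.981 TPM at 72 h. In its last step it was not called (-0.20, adjusted p = 0.0530), and with the replicate block it was (adjusted p = 0.0448).

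The starts of Atg5 and Atg4a are set side by side because the pair moved in opposite directions over the course on the TMM scale (-2.81 and 3.51). In TPM Atg4a was not called over the course (-0.07). Of the other members with CACGTG, Atg14, Atg3 and Lamp1 rose over the course and Atg7 fell. Whether either motif goes with a direction was not tested. The Atg5 window (chr10:44268219-44268358, plus strand) holds CACGTG from -14, and the window of the upstream Atg4a start (chrX:140953725-140953864, plus strand) holds AGATAA, a site of GATA factors, from -83. AGATAA on either strand was present in 2 of the 39 member genes, Atg4a and Atg4d (5.13%), against 12.7% of all genes. RefSeq has 2 starts for Atg4a, and the one shown lies before the gene of GENCODE M21 (chrX:140956907-141164270). The window of the second (chrX:140956657-140956956), whose start is that of the GENCODE gene, holds neither AGATAA nor CACGTG, and which start these cells use was not tested. A gene with several windows was counted when any of them held the motif. Capitals mark the matches.
Atg5: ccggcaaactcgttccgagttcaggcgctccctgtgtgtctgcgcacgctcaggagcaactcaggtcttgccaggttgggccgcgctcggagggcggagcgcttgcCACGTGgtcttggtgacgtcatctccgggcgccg
Atg4a: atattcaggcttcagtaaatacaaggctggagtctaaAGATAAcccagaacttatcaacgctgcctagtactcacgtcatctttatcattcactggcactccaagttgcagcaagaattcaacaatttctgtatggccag

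The ATG8 proteins are the tags on the autophagosome membrane. All 5 genes rose over the course, with a median of 4.27, where 43.3% of all genes rose. In TPM 2 were higher, Map1lc3a was lower and 2 were not called (median 0.28), where 5.26% of all genes were higher and 90.9% lower. Gabarap was at 177.5, 167.6 and 172.2 TPM at 0 h, at 311.6, 292.7 and 282.4 TPM at 12 h and at 841.2, 461.0 and 766.3 TPM at 72 h. Every 12 h library lay above every 0 h library, and 72 h replicate 2 lay within the range of 48 h (435.0 to 548.8 TPM). Gabarap rose by 2.32 ± 0.13 between 24 and 36 h (adjusted p = 2.45e-12; TPM 0.30, not called) and by 5.62 ± 0.15 over the course (adjusted p = 3.76e-18; TPM 1.95).

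Map1lc3b, the LC3 gene used as the standard marker of autophagosomes, was at 97.4, 100.4 and 104.9 TPM at 0 h, 147.3, 157.8 and 157.7 TPM at 12 h, 200.2, 206.4 and 204.8 TPM at 24 h and 353.1, 242.3 and 386.5 TPM at 72 h. It was the only ATG8 gene called in TPM in both of the first 2 steps (0.61 and 0.40), and on the TMM scale it rose in all 5, by 0.71 ± 0.11, 0.72 ± 0.11, 2.02 ± 0.11, 0.74 ± 0.11 and 1.12 ± 0.11 (largest adjusted p = 1.69e-05). Map1lc3a, the related LC3 gene, was far lower, at 11.7 ± 0.767 TPM at 0 h and 7.08 ± 2.07 TPM at 72 h (3.19 ± 0.20 on the TMM scale, adjusted p = 1.88e-12; TPM -0.68).

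Gabarapl1 did not move with its relatives at first. It was at 76.5, 62.8 and 67.5 TPM at 0 h and at 59.4, 51.7 and 49.2 TPM at 24 h, with the first 2 steps not called on either scale (-0.11 ± 0.15 and 0.09 ± 0.15). At 36 h it was at 123.0, 99.1 and 93.5 TPM, above every earlier library, and its rise was 3.00 ± 0.15 (adjusted p = 6.86e-13; TPM 0.96). It then rose by 0.53 ± 0.14 and 0.48 ± 0.14 (adjusted p = 0.00441 and 0.00712; TPM -0.13 and -0.21, not called). On the TMM scale Gabarapl2, too, rose most between 24 and 36 h. In TPM it had the opposite order, with 38.5, 39.5 and 40.7 TPM at 0 h, 75.8, 72.3 and 80.7 TPM at 12 h and 49.7, 38.1 and 58.9 TPM at 72 h. Its first step was 0.99 ± 0.10 (adjusted p = 4.18e-08; TPM 0.93), followed by 0.55 ± 0.10, 2.16 ± 0.10 and 0.40 ± 0.10 (largest adjusted p = 0.00175; TPM 0.23, 0.06 and -0.30, not called), and the last step was 0.17 ± 0.10 (adjusted p = 0.148; TPM -0.64).

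Cargo receptors link ubiquitin-tagged cargo to ATG8 proteins, and all 5 rose over the course with a median of 4.74, beside 43.3% of all genes. In TPM 3 were higher and 2 lower (5.26% and 90.9% of all genes), with a median of 0.87. Sqstm1 (chr11:50199366-50210827, minus strand) made the largest rise of any member. It was at 81.9, 81.2 and 86.5 TPM at 0 h, 145.5, 136.3 and 146.7 TPM at 12 h, 131.9, 116.5 and 124.5 TPM at 24 h, 228.3, 238.0 and 182.0 TPM at 36 h, 350.0, 352.4 and 378.8 TPM at 48 h and 780.0, 665.2 and 1027.6 TPM at 72 h. From 24 h on, each group lay above the one before without overlap, and from rank 7 among the members at 0 h Sqstm1 reached rank 1 at 72 h, with libraries that overlapped those of Gabarap. Its changes were 0.82 ± 0.16, 0.11 ± 0.16 (adjusted p = 0.634), 2.88 ± 0.17, 1.40 ± 0.16 and 1.90 ± 0.16, called in all but the second step (largest adjusted p of the called steps 1.93e-04), and 7.11 ± 0.21 over the course (adjusted p = 1.08e-17; TPM 3.27).

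Calcoco1, a receptor of endoplasmic reticulum and Golgi membranes, was the lowest receptor at 0 h, at 6.68, 6.93 and 7.44 TPM, and at 24 h at 9.80, 9.95 and 10.3 TPM. At 36 h it stood at 47.9, 53.3 and 39.7 TPM, and its rise in that step was 4.31 ± 0.16 (adjusted p = 6.98e-15; TPM 2.11), the largest of any member in a step. Nbr1, which works with the product of Sqstm1, instead rose most in share in the first 12 h, from 29.5 ± 1.44 to 71.9 ± 3.03 TPM (1.33 ± 0.09, adjusted p = 6.93e-11; TPM 1.25). Tax1bp1 rose by 2.48 ± 0.11 between 24 and 36 h (adjusted p = 5.83e-14; TPM 0.29, not called) and was at 53.6 ± 12.2 TPM at 72 h. Optn, the receptor that acts downstream of PINK1, had its highest mean at 24 h in TPM and at 36 h in CPM (260 ± 30). Its libraries were at 29.4, 31.4 and 32.0 TPM at 12 h, at 52.2, 61.9 and 50.6 TPM at 24 h and at 49.5, 51.8 and 59.8 TPM at 36 h. At 72 h they were at 6.43, 4.41 and 8.51 TPM, the lowest of the receptors. Optn rose most between 24 and 36 h, by 2.08 ± 0.12 (adjusted p = 3.34e-12, TPM -0.03, not called). From 36 to 48 h Optn was not called (-0.22 ± 0.11, adjusted p = 0.126, TPM -0.86). Its changes were -0.40 ± 0.12 in the first step (adjusted p = 0.00639; TPM -0.45, not called), 1.17 ± 0.12 in the second (adjusted p = 1.48e-07; TPM 0.80) and -1.47 ± 0.12 in the last (adjusted p = 1.60e-09; TPM -2.05).

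**Figure D3:**
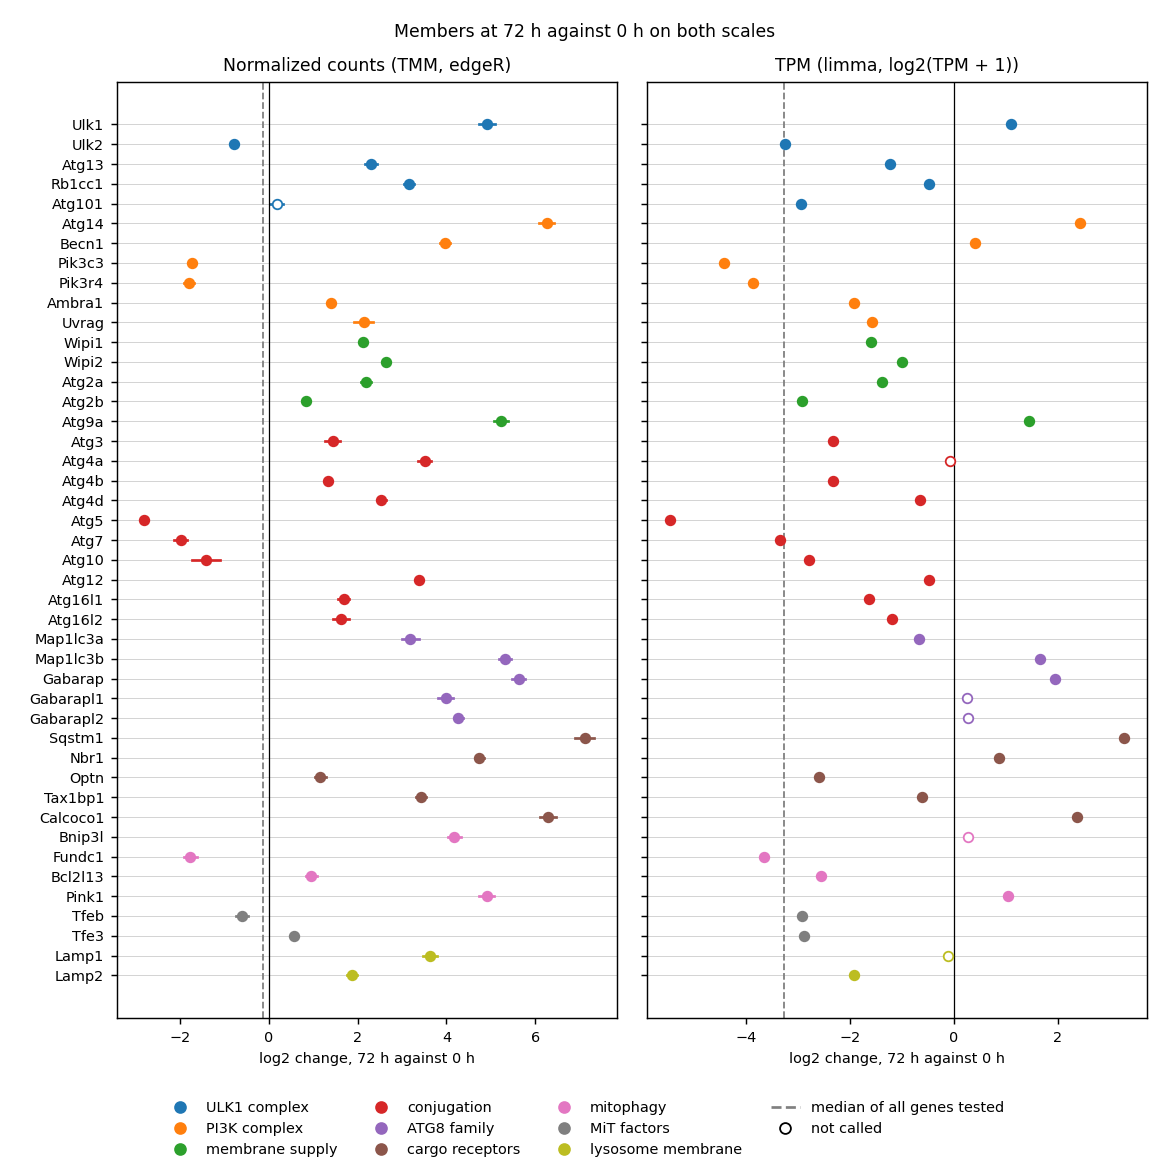
Log2 change of each tested member from 0 to 72 h, coloured by pathway step, on the TMM scale (left, bars are SE) and in TPM (right); open circles were not called and dashed lines are medians of all genes tested (-0.13 and -3.26). Of 44 members 35 rose and 8 fell on the TMM scale, and 10 were higher and 29 lower in TPM; Sqstm1 (7.11, TPM 3.27) and Atg5 (-2.81, TPM -5.47) are the extremes.

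The mitophagy genes did not move together. Bnip3l (chr14:66985239-67008877, minus strand), which encodes NIX, was at 44.6, 48.8 and 46.9 TPM at 0 h, at 164.2, 191.7 and 190.7 TPM at 12 h, at 180.7, 212.2 and 207.4 TPM at 24 h and at 193.7, 214.9 and 211.2 TPM at 36 h. At 48 h it was at 133.6, 138.8 and 224.1 TPM and at 72 h at 54.9, 40.3 and 82.8 TPM. The 12 h libraries were all above the 0 h libraries, neighbouring groups from 12 to 48 h overlapped, and at 72 h replicate 2 lay under every 0 h library. On the TMM scale the steps were 2.01 ± 0.13 (adjusted p = 6.12e-11; TPM 1.94), 0.45 ± 0.13 (adjusted p = 0.00647; TPM 0.13, not called), 2.13 ± 0.13 (adjusted p = 9.45e-12; TPM 0.05, not called), 0.30 ± 0.13 (adjusted p = 0.0528; TPM -0.36, not called) and -0.71 ± 0.13 (adjusted p = 5.59e-05; TPM -1.48).

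Pink1, the kinase that flags damaged mitochondria, was at 12.0, 12.5 and 13.3 TPM at 0 h, 21.6, 20.6 and 21 TPM at 12 h, 18.4, 18.2 and 19.9 TPM at 24 h and 42.9, 47.3 and 38.0 TPM at 36 h. At 72 h it stood at 25.1, 22.9 and 33.7 TPM, still above every library at 0 h. It rose by 0.78 ± 0.15 in the first step (adjusted p = 1.77e-04; TPM 0.70), by 3.23 ± 0.16 between 24 and 36 h (adjusted p = 3.34e-13; TPM 1.13) and by 0.80 ± 0.15 to 48 h (adjusted p = 1.21e-04; TPM 0.14, not called), and the steps between 12 and 24 h and after 48 h were not called (0.16 ± 0.15 and -0.06 ± 0.14, adjusted p = 0.424 and 0.746; TPM -0.79 in the last). Bcl2l13, a receptor on the outer membrane, started as the highest of the 4 at 114.1 ± 2.35 TPM and ended at 18.8 ± 2.68 TPM, while on the TMM scale it rose by 1.11 ± 0.12 between 24 and 36 h (adjusted p = 7.93e-08) and fell by 0.48 in the last step (SE 0.12, adjusted p = 0.00194).

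Fundc1, the receptor linked to mitophagy under low oxygen, fell on both scales. It was at 15.3, 20.1 and 17.2 TPM at 0 h, at 16.6, 19.8 and 20.3 TPM at 12 h and at 0.787, 0.210 and 0.432 TPM at 72 h, a change of -1.76 ± 0.15 over the course (adjusted p = 3.35e-10; TPM -3.66). The means of Bnip3l and Fundc1 were 46.8 and 17.5 TPM at 0 h, and 59.3 and 0.476 TPM at 72 h. From 48 to 72 h 3 of the 4 mitophagy members fell and all 4 were lower in TPM, where 34.5% of all genes fell and 59.3% were lower in TPM.

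The MiT factors switch on genes of lysosomes and autophagy by binding the E-box core. Tfeb fell by 0.98 in the first 12 h (SE 0.12, adjusted p = 7.77e-07; TPM -0.85), from 12.3, 9.04 and 11.2 TPM to 6.26, 5.35 and 5.03 TPM. It was at 5.35, 4.50 and 5.31 TPM at 24 h (0.18 ± 0.12, adjusted p = 0.262), at 0.846, 0.391 and 0.451 TPM at 36 h (-1.46 ± 0.15, adjusted p = 2.43e-08; TPM -1.96) and at 0.240, 0.240 and 0.217 TPM at 48 h (-0.16 ± 0.18, adjusted p = 0.562; TPM -0.33). At 72 h it was at 0.571, 0.479 and 0.631 TPM, above the 48 h libraries and far below those at 0 h, with a rise of 1.82 ± 0.16 (adjusted p = 5.33e-09; TPM 0.34). Between 0 and 72 h Tfeb changed by -0.60 ± 0.13 on the TMM scale (adjusted p = 1.81e-04; TPM -2.92), and it was called neither way with TPM centred on the median gene (0.14, adjusted p = 0.360). Tfe3 fell by 0.70 in the first 12 h (SE 0.08, adjusted p = 4.36e-07; TPM -0.75), from 39.5 ± 2.23 to 23.1 ± 0.586 TPM. It rose by 1.54 ± 0.08 between 24 and 36 h (adjusted p = 1.88e-12), where it was lower in TPM (-0.48), and its mean at 72 h was 4.53 TPM. Mitf stayed at or under 0.0320 TPM in every library.

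Of the lysosomal membrane proteins, Lamp1 ended on a sharp rise. It stood at 345.5, 349.2 and 365.4 TPM at 0 h, the highest level of any member there, at 139.8, 97.7 and 147.1 TPM at 48 h and at 487.1, 206.2 and 349.6 TPM at 72 h. Every 72 h library was above every 48 h library, and replicate 2 was below those at 0 h. The last step was 2.10 ± 0.14 (adjusted p = 8.71e-11; TPM 1.37), after 0.59 ± 0.13 and 0.69 ± 0.13 in the 2 steps before (adjusted p = 4.38e-04 and 1.91e-04; TPM -1.43 and 0.05, the latter not called). Lamp2, which takes part in fusion with autophagosomes, went from 138.9 ± 4.06 to 37.4 ± 12.2 TPM while rising by 1.88 ± 0.11 on the TMM scale (adjusted p = 9.70e-13). The promoter of Lamp1 is shown because it held more copies of the E-box core than any other member's window. The 140 bases (chr8:13159041-13159180, plus strand) carry it at -61, -45, -28 and -15.
Lamp1: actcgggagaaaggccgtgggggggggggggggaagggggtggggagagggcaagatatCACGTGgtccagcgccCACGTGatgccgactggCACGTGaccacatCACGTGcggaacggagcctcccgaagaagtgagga

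Replicates of the late groups were uneven in TPM. The median coefficient of variation over the 44 members was 4.21 to 5.48% in the 0, 12 and 24 h groups with and without SA, 10.7% at 36 h and 19.7% at 48 h, and it was 26.9% in the 72 h group. Replicate 2 had the lowest TPM of the 72 h group for 43 of the 44, and replicate 3 the highest of the 48 h group for 35. Over the counts of all genes replicate 3 stood farthest from the other two in both groups, with a chi-square per gene of 213 and 270 at 72 h (85.5 between the others) and of 152 and 135 at 48 h (22.9 between the others). Globin genes were included in this measure. In 48 h replicates 1, 2 and 3 Hba-a1 stood at 53504, 56586 and 213934 TPM and Hba-a2 at 278276, 292019 and 97715 TPM. The part of globin genes in these distances was not tested. Without 72 h replicate 2 the members higher in TPM at 72 h than at 0 h numbered 13, and without 48 h replicate 3 those lower in TPM at 48 h than at 36 h numbered 25. The 35 rises and 8 falls over the course on the TMM scale were counted whichever of the 6 libraries was left out.

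Succinyl acetone asked what a block of heme synthesis does to these genes during the first 12 h. No member was called by edgeR in either direction, against 0.0162% of all genes higher and 0.364% lower, and none in TPM (0.0315% and 0.346%); DESeq2 also called none. The changes ran from -0.31 to 0.23 with a median of 0.00, and the outermost bounds of the 95% intervals of single members were -0.58 and 0.70. An unadjusted p under 0.05 was found for 4 members, and for 759 of the 12360 genes.

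The 3 libraries with SA lay all above or all below the 3 without it in CPM for 15 of 44 members, 8 higher and 7 lower, against 24.2% of all genes tested. The 4 members with an unadjusted p under 0.05 were among the 15. Bnip3l was at 164.2, 191.7 and 190.7 TPM without SA and at 146.8, 150.0 and 150.3 TPM with it (-0.31 ± 0.13, adjusted p = 0.695). Tfe3 was at 22.7, 22.8 and 23.8 TPM without and at 27.4, 27.7 and 27.4 TPM with SA (0.23 ± 0.08, adjusted p = 0.537). Pik3c3 was at 31.0, 30.0 and 31.7 TPM without and 34.1, 37.1 and 36.9 TPM with SA (0.19 ± 0.08, adjusted p = 0.718), and Atg5 at 27.5, 29.5 and 29.5 TPM without and 32.3, 32.6 and 34.7 TPM with SA (0.18 ± 0.08, adjusted p = 0.785). With the spread taken from the 6 compared libraries alone, edgeR called Bnip3l (-0.33, adjusted p = 0.00675) and Tfe3 (0.21, adjusted p = 0.0255) and no other member.

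The rest of the panel was not called with SA, with changes between -0.16 and 0.16. For Pink1 and Tfeb every library with SA lay below every 12 h library without it in CPM. The changes were 0.09 ± 0.15 for Ulk1, -0.03 ± 0.11 for Becn1, 0.02 ± 0.12 for Atg7, 0.04 ± 0.11 for Map1lc3b and 0.16 ± 0.15 for Gabarapl1. They were 0.00 ± 0.10 for Gabarapl2, -0.07 ± 0.16 for Sqstm1, -0.16 ± 0.15 for Pink1 and -0.16 ± 0.12 for Tfeb. In the same libraries the erythroid markers summed to between 37600 and 42500 TPM at 12 h and to between 27100 and 31900 TPM with SA.

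**Figure D4:**
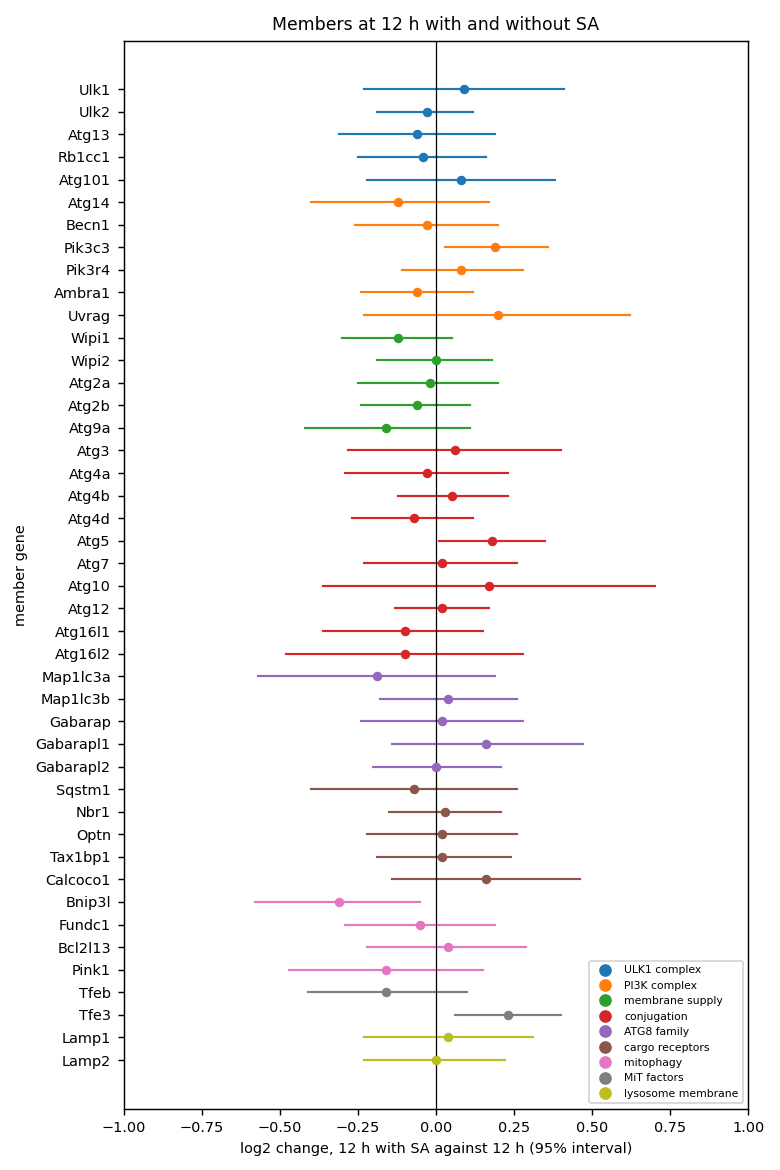
Log2 change of each tested member at 12 h with SA against 12 h without it on the TMM scale, with its 95% interval (3 libraries a group). Values run from -0.31 (Bnip3l) to 0.23 (Tfe3), and none passed an adjusted p of 0.05 in the model of all 21 libraries.

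Beyond the members, 7 lists of other genes of the pathway were compared over the course, in which 43.3% of all genes rose and 46.5% fell, and 5.26% were higher and 90.9% lower in TPM. Of the subunits of the v-ATPase, the proton pump that makes lysosomes acid, 15 of 16 rose and 1 fell at 72 h against 0 h (median 2.06), and in TPM none was higher and 13 were lower. The extremes were Atp6v0b (3.83 ± 0.13, adjusted p = 1.02e-16; TPM 0.17, not called) and Atp6v0a2 (-1.77 ± 0.07, adjusted p = 2.94e-15; TPM -3.98). Of 20 lysosomal hydrolases 13 rose and 4 fell (median 1.47; in TPM 2 higher and 16 lower), and the largest fall was that of Glb1, a galactosidase, at -4.24 ± 0.18 (adjusted p = 2.83e-15; TPM -4.00).

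Of 14 genes of fusion with lysosomes 9 rose and 4 fell (median 0.95), and all 14 were lower in TPM, where 90.9% of all genes were. Within the tethering complexes Vps11 rose by 2.5 ± 0.11 (adjusted p = 1.24e-14; TPM -1.22) and Vps16 fell by 2.63 (SE 0.09, adjusted p = 5.15e-17; TPM -4.79). Among 10 other genes of autophagosome formation 5 rose and 4 fell (median 0.48; in TPM 1 higher and 9 lower). Wdr45, a relative of the WIPI genes, rose by 4.35 ± 0.13 (adjusted p = 2.56e-17; TPM 1.23), and Rubcn, an inhibitor of the VPS34 complex, fell by 2.96 (SE 0.11, adjusted p = 3.79e-16; TPM -3.45).

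The other mitophagy genes had the lowest median of the 7 lists (-0.80). Of 13 tested 4 rose and 8 fell, where 46.5% of all genes fell, and 12 of 12 were lower in TPM, near the 90.9% of all genes. The largest rise was that of Tbc1d15 (2.86 ± 0.12, adjusted p = 4.97e-15; TPM -1.08) and the largest fall that of Nipsnap1 (-5.45 ± 0.29, adjusted p = 1.61e-13; TPM -3.85). Of 6 other selective receptors 4 rose and 2 fell (median 2.28; in TPM none higher and 3 lower), led by Sec62 (3.79 ± 0.10, adjusted p = 2.57e-18; TPM -0.25, not called), with Tex264 lowest (-0.96 ± 0.16, adjusted p = 1.27e-05; TPM -4.07). Of 16 genes of mTORC1 and AMPK, the kinases that hold back and promote autophagy, 9 rose and 5 fell (median 0.41; in TPM 1 of 15 higher and 10 lower). Prkab2, an AMPK subunit, rose by 5.04 ± 0.19 (adjusted p = 6.31e-16; TPM 1.24), and Mlst8, a subunit of mTORC1, fell by 2.97 (SE 0.20, adjusted p = 7.63e-12; TPM -3.60).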

How the data were processed

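The authors deposited 2 tables of 21 libraries and 22483 genes: estimated counts per gene, unscaled (78.5% of values whole, tolerance 1e-06), and TPM per gene. STAR 2.5.3a, kallisto and DESeq2 are named, per the submitters' processing notes, beside the builds mm10 and GRCm38.p5, but which tool made which table is not given in the sources used here. Positions came from GENCODE M21 and promoters from RefSeq (GRCm38.p6).

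Estimated counts were rounded. Genes passing filterByExpr (minimum count 10; 12360 genes) were fitted in 1 edgeR 4.0.16 quasi-likelihood model of 7 groups with TMM scaling (R 4.3.3), 2-sided, with Benjamini-Hochberg adjustment over all genes and a threshold of 0.05. Each SE is the absolute log2 change over the root of its F statistic. TPM were tested with limma 3.58.1 on log2(TPM + 1), uncentred, over the 9525 genes whose mean TPM reached 1, which understates changes of low genes. DESeq2 1.42.0 and the settings in the closing section were alternatives. Scripts were tested on simulated data. Libraries of 1 group differed by more than sampling noise.

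Replicate numbers were taken to pair libraries where every same-numbered pair correlated above 0.1 in its deviations from group means (9001 genes): 12 h with 0 h (0.111 to 0.381), 24 h with 12 h (0.300 to 0.473), 72 h with 48 h (0.240 to 0.305) and SA with 12 h (0.351 to 0.375). What such a number marks is not stated in the labels.

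Members, lists and tests were chosen with earlier results of these data known. Statistics are given for a panel (Ulk1, Becn1, Atg5, Atg7, Map1lc3b, Gabarapl1, Gabarapl2, Sqstm1, Bnip3l, Pink1, Tfeb), for called members with the largest rise and fall of each step and a mean of at least 100 counts over the 6 libraries compared, and for the extremes of the other lists, of which 1 is not reported here; further members were named after their values were seen.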

Additional observations from a re-analysis of the deposited data

How the results depend on the processing

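Over the course the 35 rises and 8 falls on the TMM scale, and the variation of all 44 members, held their counts within 1.5 times under every edgeR, DESeq2 and centred TPM setting run; uncentred TPM gave 10 higher and 29 lower. Falls in single steps were the least stable counts. Between 36 and 48 h the 3 falls became 1 with DESeq2 size factors, with DESeq2 and with limma on centred TPM (all 3 settings), and 0 with only the 6 libraries compared. Between 48 and 72 h the 15 falls became 9 with only those libraries, and 8, 8 and 9 with limma on centred TPM (pseudocount 1, pseudocount 0.1 and no TPM filter). For 0 to 12 h the 8 falls became 5 with centred TPM at either pseudocount, for 12 to 24 h the 6 became 2 in all 3 such settings, and for 24 to 36 h the 3 became 5 with no count filter. With only the 6 libraries compared SA gave 1 rise and 1 fall. Uncentred log2(TPM + 0.1) gave 3 members lower at 12 h in place of 6. For Tfeb at 72 h against 0 h, centred TPM turned the sign, to 0.14 with pseudocount 1 and 0.17 with pseudocount 0.1 (adjusted p = 0.360 and 0.477). The cause was not tested.

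Leaving out each library in turn gave, on the TMM scale, 20 to 21 rises and 5 to 7 falls at 12 h (5 without 0 h replicate 1 or without 12 h replicate 2), 13 to 15 and 4 to 6 at 24 h, 29 to 31 and 3 at 36 h, 21 to 28 and 2 to 4 at 48 h, and 14 to 18 and 12 to 17 at 72 h against 48 h. In TPM, a range added after the spread at 72 h was seen, members higher and lower numbered 17 to 19 and 4 to 6 at 12 h, 2 to 3 (5 with all libraries) and 8 to 9 at 24 h, 8 to 9 and 26 at 36 h, 2 and 12 to 25 at 48 h (25 without 48 h replicate 3), 4 to 9 and 25 to 31 at 72 h against 48 h (4 without 72 h replicate 3), and 9 to 13 and 27 to 29 at 72 h against 0 h.

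With the replicate block the rises and falls of members were 21 and 8, 15 and 7, 30 and 3, 28 and 3, and 16 and 16 in the 5 steps, 35 and 8 over the course and 0 and 0 with SA. It changed 6 calls of single members and no other. Where the numbers paired the libraries, Atg3 (12 to 24 h, -0.41, adjusted p = 0.0202) and Atg4b (48 to 72 h, -0.20, adjusted p = 0.0448) gained a call. Between 36 and 48 h, where they did not, Pik3r4 was lost (-0.25, adjusted p = 0.0537), and Atg101 (0.37, adjusted p = 0.0377), Atg7 (-0.36, adjusted p = 0.0439) and Bnip3l (0.30, adjusted p = 0.0170) were called. Depth limits the low levels at 72 h, where tested members with a mean under 1 TPM had between 13 (Atg10) and 298 (Ulk2) counts a library.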

Other observations

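Some genes of the other lists stood out after their values were seen and are given as values. Ncoa4, the receptor that delivers ferritin to lysosomes, rose by 3.30 ± 0.11 at 72 h against 0 h (edgeR, adjusted p = 5.00e-17), from 169.4 ± 3.93 to 1674 ± 126 CPM (n = 3), while its mean TPM went from 162.7 to 125.7 (TPM change -0.44, limma, adjusted p = 0.057). Ctsd, a major lysosomal protease, rose by 4.67 ± 0.12 (adjusted p = 2.19e-18) and was also higher in TPM, at 182.8 and 337.5 on average (0.84, adjusted p = 6.70e-05). Ctsb, a related protease, rose by 3.86 ± 0.10 (adjusted p = 2.86e-18) with 61.8 and 63.3 TPM on average (-0.02, adjusted p = 0.938).

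On the list of other mitophagy genes, of which 4 of 13 rose and 8 fell over the same comparison, 3 are given here, picked for their falls. Phb2, an inner membrane protein that binds LC3, fell by 3.77 (SE 0.09, adjusted p = 1.25e-18; TPM -6.87), from 376.9 to 2.25 TPM on average. Vdac1, the channel of the outer membrane, fell by 3.28 (SE 0.09, adjusted p = 4.53e-18; TPM -6.55), from 296.7 to 2.23 TPM. Pgam5, a mitochondrial phosphatase, fell by 3.20 (SE 0.12, adjusted p = 4.86e-16; TPM -5.54). Between 48 and 72 h 13 of 20 lysosomal hydrolases and 12 of 16 v-ATPase subunits rose (medians 0.71 and 0.60), and 3 of each fell. Of all genes 24.7% rose and 34.5% fell. In TPM 6 and 1 were higher and 6 and 5 lower, against 4.59% and 59.3% of all genes.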
